A study of Mus musculus with 10 samples.

Results

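Established germline stem (GS) cells were compared with testis cells kept in culture for 3 weeks, using 4 of the 10 RNA-seq libraries of a series on DBA/2 mouse spermatogonial stem cells. GS cells are long-term cultures of these stem cells, and the labels give 2 libraries of them. The week 3 libraries, also 2, came from adult testis cells sorted magnetically with an antibody to CD9, a surface protein, and then cultured. Both groups were DBA/2, and both were grown in an Iscove-based medium with the growth factors FGF2 (10 ng/ml, human) and GDNF (15 ng/ml, rat) and 1% fetal bovine serum. The other 6 libraries were the selected cells at weeks 0, 1 and 2. The age of the GS cultures, the number of lines behind them and the use of feeder cells are in none of the sources used here. The labels do not say whether the 2 libraries of a group are separate animals or cultures. The p-values come from a fit of all 10 libraries. They therefore reflect how far the libraries of a group differ, over all 5 groups, which may be technical spread alone. All values are the authors' normalized FPKM, fragments scaled by transcript length and library size. Of 21969 genes in the matrix, 12728 had an FPKM of 1 or more in at least 2 of the 4 libraries and were tested.

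Spermatogonial stem cells renew themselves under GDNF, which binds the receptor GFRA1 and signals through the kinase RET. FGF2 acts through its own receptor kinases, and both factors feed the RAS and ERK pathway. In mouse germ cell cultures this signalling is known to raise Etv5, Bcl6b and Lhx1, transcription factors of self-renewal. It also raises immediate early genes, which respond to a growth signal without new protein synthesis, and the DUSP phosphatases and Sprouty proteins that damp the pathway.

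The 4 libraries held 21.15 and 18.67 M reads in GS cells and 14.73 and 19.19 M reads at week 3 (M, 1e6), as read from the steps of the FPKM values. At FPKM 1 a transcript of 2200 nucleotides then had 42.3 and 37.3 reads in GS cells and 29.5 and 38.4 reads at week 3. Across genes, which are not independent replicates, the libraries of a group correlated at r = 0.9901 in GS cells and r = 0.988 at week 3 on the log2 scale. Germ cell markers were high in all 4 libraries. The germ cell RNA helicase Ddx4 had 120 and 129 FPKM in GS cells, against 156 and 144 FPKM at week 3. The transcription factor Zbtb16 (PLZF) had 161 and 161 FPKM in GS cells, against 176 and 162 FPKM at week 3, and neither gene passed the test (limma, adjusted p = 0.0532 and 0.673). Of the 15 Leydig markers 11 lay below the filter, and of the 28 spermatid genes 20 did. The Leydig hormone gene Insl3 was listed at 0 in both GS libraries, against 0.163 and 0 FPKM at week 3. Some listed genes were well expressed: Odf2, a centrosome and sperm tail protein, had 45.6 and 44 FPKM in GS cells, against 28.5 and 30 FPKM at week 3 (limma adjusted p = 0.000781). The Sertoli cell receptor gene Fshr was listed at 0 in all 4.

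By limma, 3619 genes (28.4% of those tested) differed: 1889 genes (14.8%) were higher in GS cells and 1730 (13.6%) were lower, at an adjusted p under 0.05 (Benjamini-Hochberg over all 12728). A change of at least 2-fold on the log2(FPKM + 1) scale was reached by 436 genes that were higher (3.43%) and 291 that were lower (2.29%). Numbers in brackets after a gene's FPKM values are log2 fold changes of GS cells over week 3 on this scale, which understates the change of low genes. The median log2 fold change over all genes tested was -0.01. In 8409 genes (66.1%) the groups did not overlap, with both GS libraries above in 4079 (32.0%) and below in 4330 (34.0%). Both GS libraries were above all 8 libraries of weeks 0 to 3 in 136 of the 436 genes and below all 8 in 86 of the 291. Among all 12728 genes tested they were above all 8 in 1052 and below all 8 in 679. The 436 and 291 were picked by their difference from week 3, whose libraries are among those 8. The filter was passed only through the GS libraries by 236 genes and only through the week 3 libraries by 261, and such genes had to differ to be tested. Leaving out a library lowered the counts: 899 genes were higher without GS cells replicate 1, 1203 without GS cells replicate 2, 1196 without week 3 replicate 1 and 1364 without week 3 replicate 2. The matching counts of lower genes were 924, 933, 882 and 899. Those fits rest on fewer samples, and a group with 1 library was assumed to vary like the others.

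**Figure D1:**
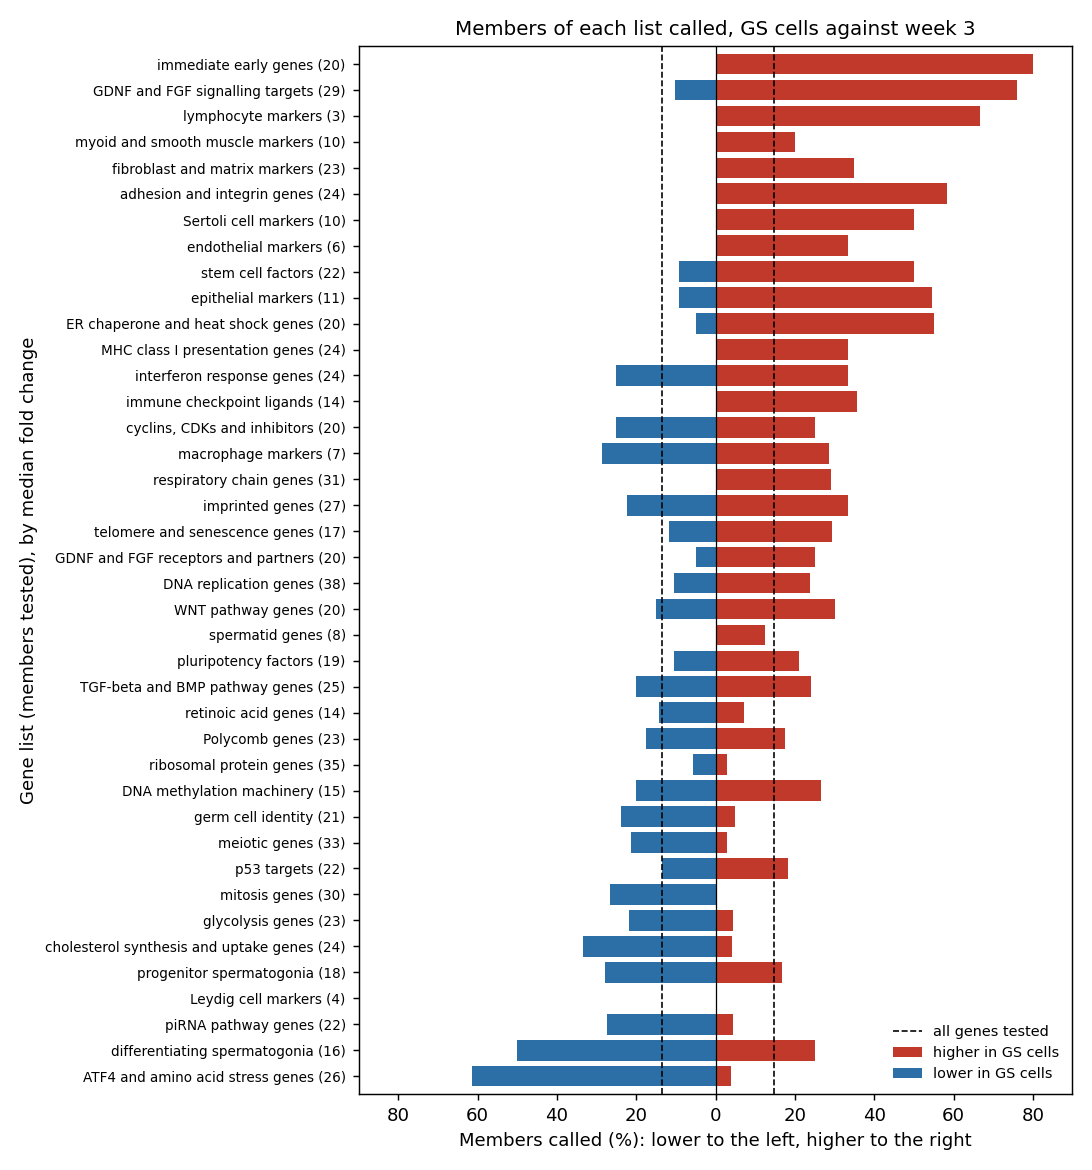
Share of the tested members of each of 40 gene lists (vertical axis, number tested in brackets) that passed the limma test between GS cells and week 3, in percent, with members higher in GS cells in red to the right and members lower in GS cells in blue to the left. Dashed lines mark all genes tested (14.8% higher, 13.6% lower). Immediate early genes and GDNF and FGF targets stand at the top with 80.0% and 75.9% higher, and ATF4 genes at the bottom with 61.5% lower.

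Genes that respond to GDNF and FGF were higher in GS cells as a group. Of the 29 tested members of the list of GDNF and FGF signalling targets, 22 (75.9%) were higher and 3 (10.3%) lower. Over all genes tested, 14.8% were higher and 13.6% lower. The median log2 fold change of the list was 0.87, beside -0.01 over all genes. Of 20 immediate early genes, 16 (80.0%) were higher and 0 lower (median 1.42). At an unadjusted p under 0.05, 0 of them were lower. The 2 lists share 4 genes. Without any 1 of the 4 libraries, the count of higher genes was 18 or 19 for the targets and 15 for the immediate early genes.

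Fos (chromosome 12, 85473890 to 85477273, plus strand, GRCm38), a subunit of the AP-1 transcription factor, had 128 and 135 FPKM in GS cells, against 20.6 and 17.4 FPKM at week 3. The difference was 2.74 on the log2 scale (SE 0.12, limma adjusted p = 8.48e-06), and the groups lay far apart. Fosb, another AP-1 subunit, had 28.7 and 26.8 FPKM in GS cells, against 3.91 and 4.03 FPKM at week 3, a difference of 2.53 (SE 0.11, limma adjusted p = 8.48e-06). Cyr61, a secreted matrix protein, had 14.3 and 13.6 FPKM in GS cells, against 1.17 and 1.84 FPKM at week 3. These values were not the highest of the series. Fos had 272 and 341 FPKM at week 0, 257 and 233 FPKM at week 1 and 78.2 and 78.9 FPKM at week 2. Cyr61 had 53.6 and 54.8 FPKM at week 0 and 171 and 164 FPKM at week 1. For both genes, GS cells lay between week 1 and week 2, and week 3 was the low point of the 5 groups.

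The feedback phosphatases of the ERK pathway followed. Dusp6, which removes phosphate from ERK, had 201 and 199 FPKM in GS cells, against 57.9 and 62.3 FPKM at week 3, and differed by 1.72 (SE 0.11, limma adjusted p = 3.69e-05). Dusp5, its nuclear relative, had 128 and 125 FPKM in GS cells, against 32.5 and 33.1 FPKM at week 3, and differed by 1.91 (SE 0.08, limma adjusted p = 8.48e-06). Dusp6 was higher in GS cells than in any library of weeks 0, 1 and 2, where its top value was 121 FPKM, whereas Dusp5 reached 129 and 126 FPKM at week 1. Ier3 (log2 fold change 2.51), a survival gene of the ERK response, and Phlda1 (1.97) were called as well.

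Among the self-renewal factors, Bcl6b, a transcriptional repressor, had 65.9 and 67.4 FPKM in GS cells, against 24.9 and 22.6 FPKM at week 3. Its difference was 1.45 (SE 0.13, limma adjusted p = 0.000189), while week 2 had still higher values of 115 and 121 FPKM. Etv5, an ETS factor on chromosome 16, had 83 and 83.3 FPKM in GS cells, against 39.5 and 45.7 FPKM at week 3 (log2 fold change 0.95, limma adjusted p = 0.00192), and its GS values were the top ones of the 10 libraries. The zinc finger factors Egr2 (2.22) and Egr3 (1.91) were higher too. The receptor genes moved less: Ret had 52.1 and 52.8 FPKM in GS cells, against 65.3 and 59.6 FPKM at week 3, and did not pass the test (limma adjusted p = 0.0842). Gfra1 had 37 and 34.8 FPKM in GS cells, against 26.4 and 28.1 FPKM at week 3 (limma adjusted p = 0.0366), a call that was lost without any 1 of the 4 libraries (adjusted p = 0.0828 to 0.161). Of 20 tested receptors and partners, 5 were higher and 1 lower. Without GS cells replicate 1, GS cells replicate 2 or week 3 replicate 1 that count of higher members was 3. In that list Epha2, an ephrin receptor kinase, had the largest difference, 133 and 131 FPKM in GS cells against 45.9 and 51 FPKM at week 3 (log2 fold change 1.43).

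Of the 22 tested stem cell factors, 11 were higher and 2 lower (median 0.35). The count of higher members was 6 without GS cells replicate 1 or without week 3 replicate 2. The count of lower members was 0 without those or without week 3 replicate 1, and 1 without GS cells replicate 2. The list shares Bcl6b, Etv5, Egr2, Egr3, Lhx1, Id4 and Dusp6 with the target list. Nanos2, an RNA-binding protein of the stem cell state, had 10.3 and 8.62 FPKM in GS cells, against 7.32 and 7.39 FPKM at week 3 (limma adjusted p = 0.0953). Id4, a marker of stem cells in the testis, had 16.8 and 18 FPKM in GS cells, against 17.2 and 14.7 FPKM at week 3, and these ranges overlapped (limma adjusted p = 0.472).

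The 3 lower members of the target list were Id1, Id2 and Mycn. Id1, an inhibitor of basic helix-loop-helix factors and a known BMP target, had 49.6 and 42.3 FPKM in GS cells, against 148 and 138 FPKM at week 3, and differed by -1.62 (SE 0.13, limma adjusted p = 0.000138). Mycn, a growth-promoting transcription factor, had 25.9 and 25.2 FPKM in GS cells, against 73.8 and 63.9 FPKM at week 3 (-1.39, limma adjusted p = 0.000212). Week 3 was above week 2 for both, since week 2 had 23.2 and 26.7 FPKM for Id1 and 25.3 and 25.3 FPKM for Mycn. Its relative Myc went the other way, with 6.67 and 5.46 FPKM in GS cells, against 2.49 and 2.16 FPKM at week 3 (1.08, limma adjusted p = 0.00114).

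**Figure D2:**
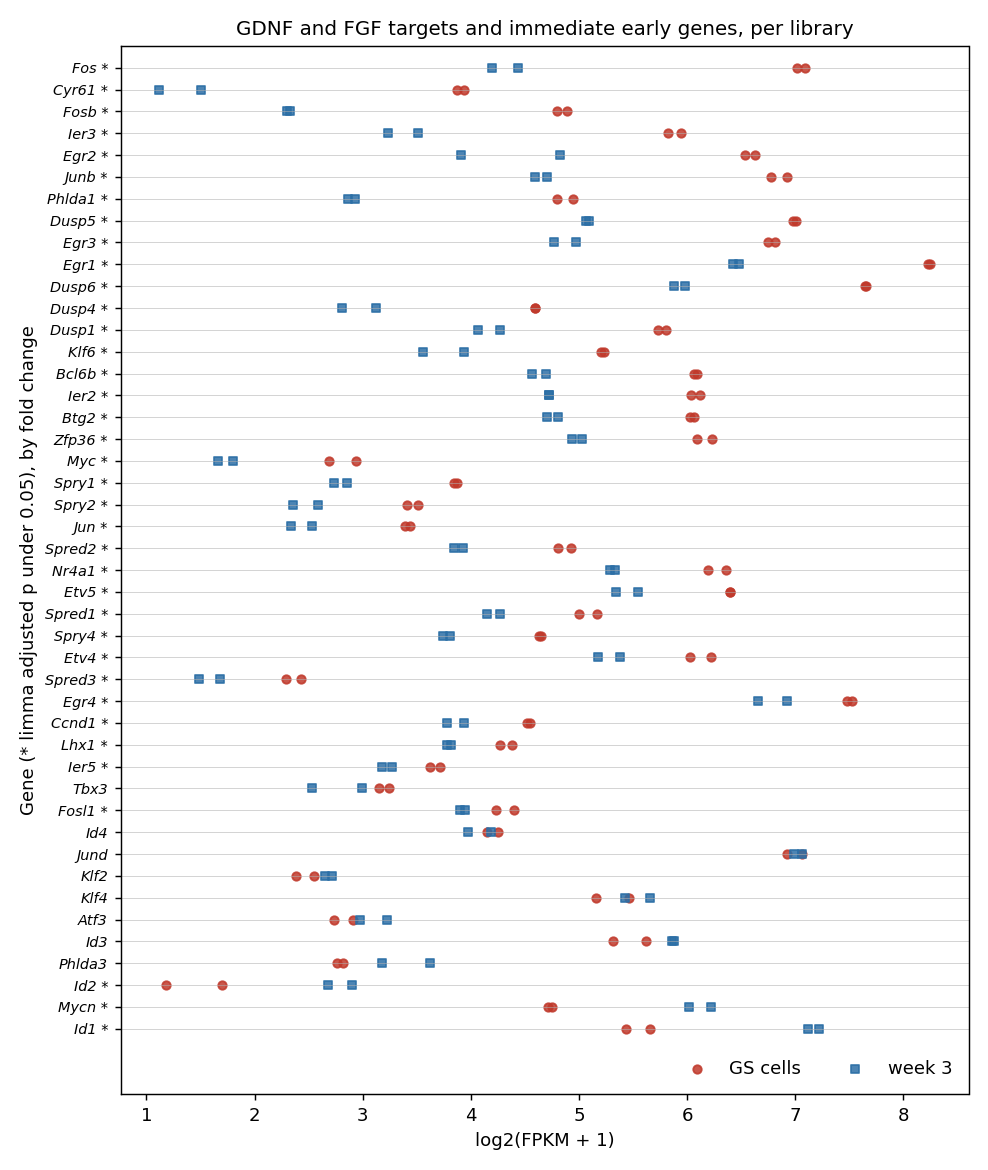
Expression of the 45 tested genes of the GDNF and FGF target list and the immediate early list, as log2(FPKM + 1) on the horizontal axis, with GS cells as red circles and week 3 as blue squares, 2 libraries each, and genes ordered from the highest fold change at the top. Fos, Cyr61 and Fosb stand at the top, and Id2, Mycn and Id1 at the bottom.

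Genes of the amino acid stress response were lower in GS cells. ATF4 is a transcription factor made when amino acids run short or the endoplasmic reticulum is stressed, and it drives genes that import and make amino acids. Of 26 tested genes of this list, 16 (61.5%) were lower and 1 (3.8%) higher, beside 13.6% and 14.8% over all genes. Their median was -0.60, beside -0.01 over all genes. The count of lower genes was 13 to 16 without any 1 library. Atf4 itself, named here after its values were seen, had 186 and 171 FPKM in GS cells, against 188 and 203 FPKM at week 3 (limma adjusted p = 0.256).

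Chac1, which degrades glutathione, had 8.13 and 6.62 FPKM in GS cells, against 26.8 and 32.4 FPKM at week 3, and differed by -1.87 (SE 0.15, limma adjusted p = 0.000126). Slc1a4, a transporter of neutral amino acids, had 4.78 and 5.06 FPKM in GS cells, against 15.1 and 15.1 FPKM at week 3 (-1.44, limma adjusted p = 0.000231). Psat1, an enzyme of serine synthesis, had 62.4 and 65.1 FPKM in GS cells, against 162 and 176 FPKM at week 3 (-1.39, limma adjusted p = 0.000159). Ddit4, an inhibitor of mTORC1, had 33.4 and 30.3 FPKM in GS cells, against 84.9 and 84 FPKM at week 3. In all of these genes the groups did not overlap, as in 66.1% of all genes tested. The member that was higher was Phgdh, which opens serine synthesis, with 170 and 148 FPKM in GS cells, against 118 and 103 FPKM at week 3 (0.52, limma adjusted p = 0.0054). Week 3 was a high point for Chac1, which had 1.17 and 1.45 FPKM at week 2, for Slc1a4, which had 2.72 and 3.18 FPKM, and for Psat1, which had 58.1 and 47.2 FPKM. For these 3 genes, GS cells were above week 2 and below week 3.

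The letters TGATGNAA, the pattern of the composite site that ATF4 binds with C/EBP factors, were searched on both strands in RefSeq promoters (GRCm38.p6, 250 bases before to 50 after each start). They stood in 1304 of 32851 promoters (3.97%). Among the members called lower, 7 of 16 genes had a match (7 of 18 promoters, 38.9%), and 9 of the 24 tested members with a promoter in the table did. The other 2 tested members were not searched. Windows of 40 bases on either side, ended at the transcription start, are printed for 5 of the members called lower, to show where the pattern stands. Capitals mark the match, and each sequence runs 5′ to 3′ on the gene's strand.
Chac1, chr2:119351009-119351096, plus strand: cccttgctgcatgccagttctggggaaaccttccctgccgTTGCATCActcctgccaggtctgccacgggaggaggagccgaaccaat
Slc7a11, chr3:50443614-50443719, minus strand: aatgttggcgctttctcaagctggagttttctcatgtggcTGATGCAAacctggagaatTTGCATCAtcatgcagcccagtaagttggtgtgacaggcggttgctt
Asns, chr6:7693210-7693272, minus strand: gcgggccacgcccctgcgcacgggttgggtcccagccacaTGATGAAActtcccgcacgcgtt
Gars, chr6:55037931-55038000, plus strand: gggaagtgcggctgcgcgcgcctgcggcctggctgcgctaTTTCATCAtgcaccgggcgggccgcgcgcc
Fgf21, chr7:45615582-45615669, minus strand: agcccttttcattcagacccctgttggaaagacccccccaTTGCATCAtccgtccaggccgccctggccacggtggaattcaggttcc
Slc7a11, the cystine importer, held 2 matches, at -66 and -47 from the start. Asns makes asparagine, Gars charges a transfer RNA with glycine, and Fgf21 is a hormone of the starvation response. A match is a description of letters, and binding was not measured. The list was chosen for links to ATF4 and amino acid stress, so setting its share beside that of all promoters tests nothing.

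**Figure D3:**
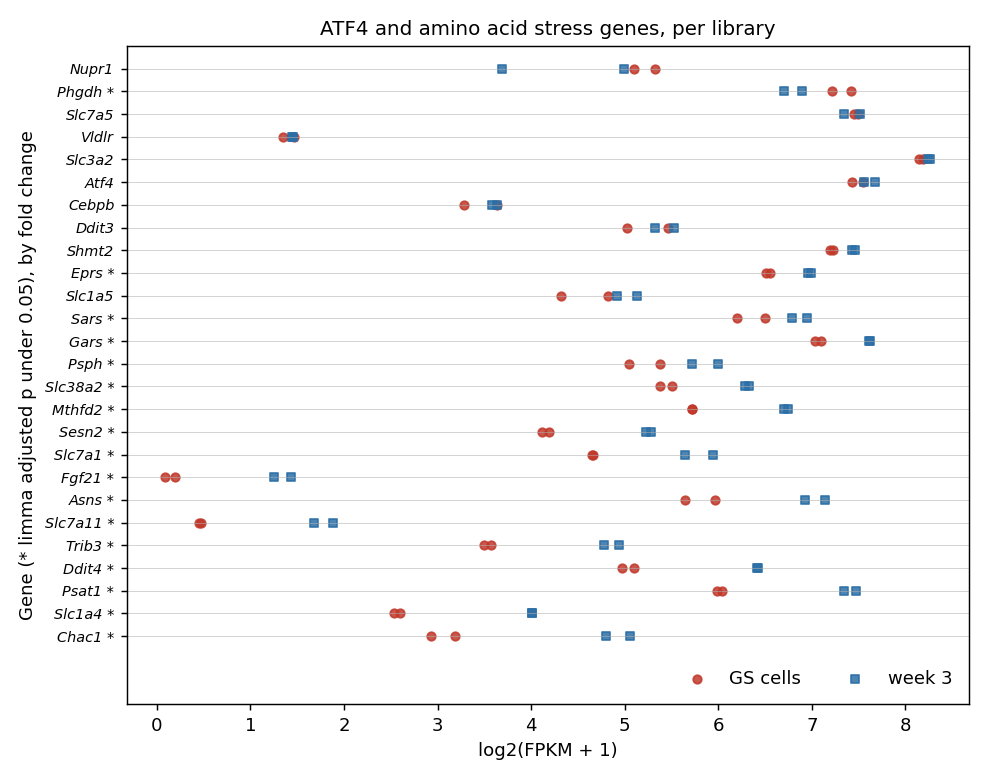
Expression of the 26 tested genes of the ATF4 and amino acid stress list, as log2(FPKM + 1), with GS cells as red circles and week 3 as blue squares, 2 libraries each, ordered from the highest fold change at the top. From Eprs downwards nearly all GS circles lie left of the week 3 squares, and Chac1 has the lowest fold change.

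Genes that mark the way out of the stem cell state were mixed. Of 16 tested genes of differentiating spermatogonia, 8 were lower and 4 higher (median -0.46). Of 33 meiotic genes, 7 (21.2%) were lower and 1 (3.0%) higher, beside 13.6% and 14.8% over all genes (median -0.15). The count of higher genes in the first list was 2 without GS cells replicate 1, without GS cells replicate 2 or without week 3 replicate 1. Lower meiotic genes numbered 4 without either GS library. Stra8, which is induced by retinoic acid before meiosis, had 63.7 and 55.8 FPKM in GS cells, against 102 and 105 FPKM at week 3 (-0.78, limma adjusted p = 0.00336). Prdm9, the histone methyltransferase that places recombination sites, had 1.15 and 1.41 FPKM in GS cells, against 6.56 and 6.17 FPKM at week 3 (-1.69, limma adjusted p = 0.000514). Neurog3, a transcription factor of progenitors, had 0.744 and 0.343 FPKM in GS cells, against 6.04 and 4.68 FPKM at week 3 (-2.05, limma adjusted p = 0.000851). All 3 were lower in GS cells, with no overlap, as 34.0% of all genes tested were. Neurog3 passed the filter only through the week 3 libraries, so its groups could not overlap. It was not tested without either week 3 library, or where FPKM 1 or more was required in all 4 libraries. Kit, the receptor that marks differentiating spermatogonia, was higher, with 34.5 and 34.9 FPKM in GS cells, against 20.5 and 18.9 FPKM at week 3 (0.79, limma adjusted p = 0.00137). Pou5f1 (OCT4) was also higher, with 108 and 101 FPKM in GS cells, against 50.7 and 47.9 FPKM at week 3 (1.07, limma adjusted p = 0.000753).

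Of the progenitor list, 5 of 18 tested genes (27.8%) were lower and 3 (16.7%) higher, beside 13.6% and 14.8% over all genes (median -0.25). Upp1, a uridine phosphorylase often used as a marker of progenitors, had 20.7 and 20 FPKM in GS cells, against 99.8 and 103 FPKM at week 3 (-2.26, limma adjusted p = 2.54e-05). Week 3 alone was high, since Upp1 had 25.6 and 20.4 FPKM at week 2. Of 22 tested genes of the piRNA pathway, which silences transposons, 6 were lower and 1 higher (median -0.32). In the germ cell identity list 5 of 21 were lower and 1 higher, and the count of lower genes was 1 without GS cells replicate 1 and 3 without week 3 replicate 2. It was 8 with quantile normalization or without the week 0 libraries.

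A chromosome stood apart. Chromosome 16 carried 405 tested genes, of which 219 (54.1%) were higher in GS cells and 9 (2.2%) were lower. Their median log2 fold change was 0.47. On the 18 other autosomes the medians ran from -0.06 to 0.02, and 9.8% to 18.8% of the genes were higher. Of the 303 genes of chromosome 16 with a mean of FPKM 10 or more, 93.4% had a GS to week 3 ratio above 1, and the median ratio was 1.43. Among 8562 such genes elsewhere, 48.7% had a ratio above 1, with a median of 0.992. Both GS libraries were alike, at 0.583 and 0.578 above the mean of weeks 1 to 3. The same measure ran from -0.13 to 0.10 in the libraries of weeks 1 to 3, and the other autosomes in GS cells ran from -0.04 to 0.14. The shift was seen along the length of the chromosome: the 10 windows of 10 Mb had medians of 0.35 to 0.58. The genes tested span chromosome 16 from 3744093 to 98082450 (GRCm38). No DNA was measured, so the number of copies of the chromosome was not tested. Without chromosome 16, 1670 of 12323 genes (13.6%) were higher.

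**Figure D4:**
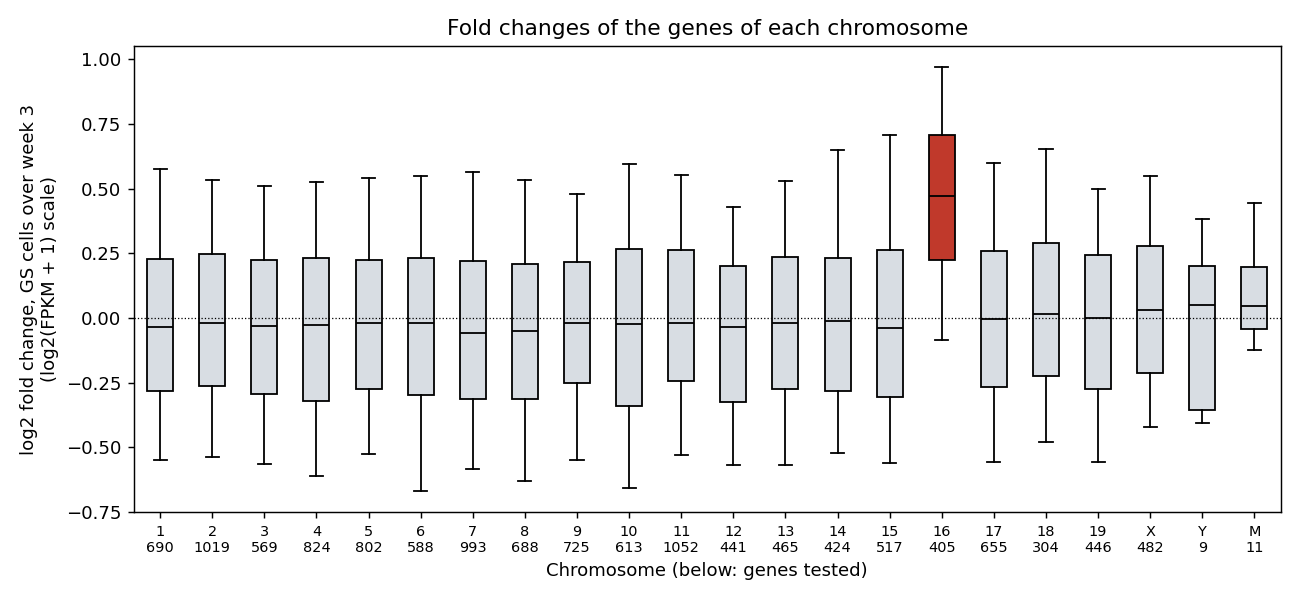
Log2 fold changes of GS cells over week 3 (vertical axis, on the log2(FPKM + 1) scale) for the tested genes of each chromosome, with the number of genes under its name. Boxes span the middle 50% of genes, lines the median and whiskers the central 80%. Chromosome 16, in red, has a median of 0.47, and the other autosomes lie between -0.06 and 0.02.

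**Figure D5:**
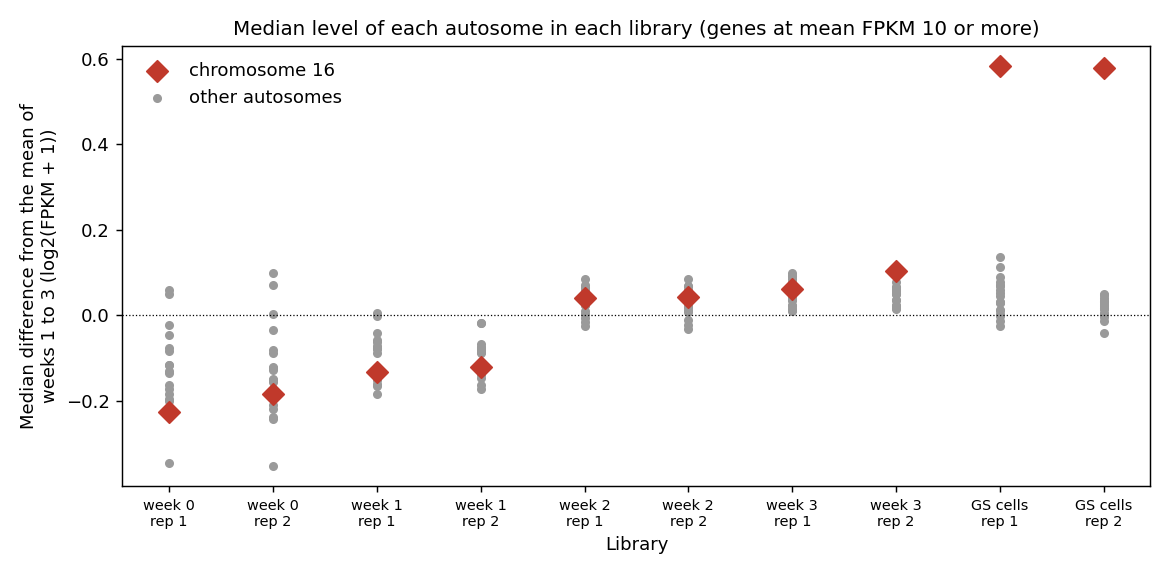
Median difference of the genes of each autosome (mean FPKM of 10 or more) from their mean over weeks 1 to 3, on the log2(FPKM + 1) scale, in each of the 10 libraries. Red diamonds are chromosome 16 and grey points the other 18 autosomes. Chromosome 16 lies at 0.583 and 0.578 in the GS libraries and at most at 0.104 in the other libraries.

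The largest called rises on chromosome 16 were in Arhgap31, B4galt4, Ccdc80, Crygs, Cox17, Itgb5, Hunk and Bach1. Arhgap31 (38598340 to 38713274, minus strand) had 27.9 and 30.4 FPKM in GS cells, against 5.69 and 5.45 FPKM at week 3, a ratio of 5.23 (limma adjusted p = 1.39e-05). Cox17, a copper chaperone of the respiratory chain, had 248 and 233 FPKM in GS cells, against 108 and 75.1 FPKM at week 3 (1.41, limma adjusted p = 0.000348). Itgb5, an integrin subunit, had 61.6 and 56.5 FPKM in GS cells, against 23 and 20.4 FPKM at week 3 (1.40). Ccdc80, a matrix protein, lost its call without GS cells replicate 2 and without week 3 replicate 1. The 9 called lower were 2010005H15Rik, Prodh, Mpv17l, Emp2, Slc7a4, Spag6l, Zdhhc8, Bbx and Dgcr8. Prodh, which degrades proline, had 2.01 and 1.92 FPKM in GS cells, against 4.72 and 6.44 FPKM at week 3 (-1.14, limma adjusted p = 0.00401), and its call held under every alternative. Chromosome 16 holds Etv5 among the target and stem cell lists, and 0 tested members of the ATF4 and immediate early lists. It also holds 2 of the 11 higher chaperone and heat shock genes. The 1 higher gene of the germ cell identity list and that of the piRNA list lie on it. Of the higher adhesion, respiratory chain, interferon and checkpoint genes, it holds 1 in each list.

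Among all genes, the 12 highest fold changes with groups apart were in Tmem173, Glmp, Col13a1, Krt18, Lif, Ereg, Mmp13, Fos, Exoc3l, Bhlhe40, Plvap and Cyr61, and none lost its call under an alternative that tested it. Tmem173 and Lif passed the filter only through the GS libraries, so their groups could not overlap. Neither was tested without either GS library. Tmem173, Lif, Ereg, Exoc3l and Plvap were not tested where FPKM 1 or more was required in all 4 libraries. Tmem173 (STING, chromosome 18, 35733679 to 35740554, minus strand), a sensor of cytosolic DNA signals, had 15.6 and 16.2 FPKM in GS cells, against 0.196 and 0.454 FPKM at week 3 (3.68, SE 0.17, limma adjusted p = 8.48e-06). Its values elsewhere in the series were at most 8.64 FPKM, at week 1. Lif, a cytokine of the interleukin 6 family, had 8.99 and 8.52 FPKM in GS cells, against 0.248 and 0.294 FPKM at week 3 (2.94, limma adjusted p = 1.25e-05). Week 1 had far more Lif, at 124 and 127 FPKM. Krt18, a keratin of simple epithelia, had 31.3 and 27.4 FPKM in GS cells, against 2.73 and 2.96 FPKM at week 3 (2.98, limma adjusted p = 8.48e-06), and its partner Krt8 had 8.21 and 6.02 FPKM in GS cells, against 1.1 and 1.36 FPKM at week 3 (1.85). Of 11 tested epithelial markers 6 (54.5%) were higher and 1 (9.1%) lower, beside 14.8% and 13.6% over all genes. In a fit of the 4 libraries alone 5 were higher and 0 lower. Their median was 0.31, and 0.29 to 0.71 without any 1 library.

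The 12 lowest were Lyz2, Wfdc17, Ccl6, AC140267.1, Mid1, Gm20458, Sp7, Clec4n, Ctss, Nr2e1, Rarres2 and Gm49496. Of these, Ccl6, Mid1, Sp7, Clec4n, Ctss, Nr2e1, Rarres2 and Gm49496 passed the filter only through the week 3 libraries, so their groups could not overlap. They were not tested without either week 3 library, or where FPKM 1 or more was required in all 4 libraries. Lyz2, the lysozyme of macrophages and other myeloid cells, had 3.36 and 1.67 FPKM in GS cells, against 61 and 94.2 FPKM at week 3 (-4.49, SE 0.25, limma adjusted p = 2.12e-05). The chemokine Ccl6 had 0.907 and 0.554 FPKM in GS cells, against 15 and 20.3 FPKM at week 3, and the lysosomal protease Ctss had 0.165 and 0 FPKM in GS cells, against 4.05 and 7.44 FPKM at week 3. Mid1, a ubiquitin ligase gene of the X chromosome (169685199 to 170005736), had 0.133 and 0.141 FPKM in GS cells, against 9.7 and 10 FPKM at week 3 (-3.25, SE 0.13, limma adjusted p = 8.48e-06). It was not tested without either week 3 library, where it no longer passed the filter. Its lowest value in weeks 0 to 2 was 4.86 FPKM, so the low level of Mid1 was found in both GS libraries and in none of the other 8. The call of AC140267.1 was lost in 10 alternatives, among them both other pseudocounts, no filter and the replicate block. The call of Gm20458 was lost without GS cells replicate 2, and that of Gm49496 without either GS library. Sp7 lost its call without either GS library and in a fit of the 4 libraries alone, and the 2 week 3 values of Sp7, an osteoblast transcription factor, were 2.31 and 23.5 FPKM.

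Lyz2 is also 1 of 17 listed macrophage markers. Their summed FPKM was 36.9 and 37.8 in GS cells and 81.8 and 128 at week 3. Most of the week 3 sum was Lyz2 itself, and the other 16 markers summed to 33.6 and 36.1 in GS cells and 20.8 and 33.7 at week 3. Of the list, 7 genes passed the filter. Of these, 2 (28.6%) were lower (Lyz2, Tyrobp) and 2 (28.6%) higher (Cd68, Mrc1), beside 13.6% and 14.8% over all genes. The call of Mrc1 was lost without either week 3 library. Without either week 3 library, 1 was lower and 1 higher, since Tyrobp no longer passed the filter, and without GS cells replicate 2 there was 1 higher. With no filter, or a filter on the mean of the 10 libraries, 4 were lower. The defining receptor gene Csf1r had 0.0388 and 0.0289 FPKM in GS cells, against 0.412 and 0.303 FPKM at week 3. The part of such cells in the lower calls was not tested, and in bulk RNA fewer cells of a type and less RNA per cell cannot be told apart.

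Matrix and fibroblast markers separated the week 3 libraries more than the groups. Their summed FPKM was 1213 and 1168 in GS cells and 574 and 1162 at week 3. Of 23 tested members 8 (34.8%) were higher and 0 lower, beside 14.8% and 13.6% over all genes (median 0.57). At an unadjusted p under 0.05, limma gave 0 lower in that list. The count of higher members was 2 without GS cells replicate 1, 4 without GS cells replicate 2, 5 (with 3 lower) without week 3 replicate 1 and 16 without week 3 replicate 2. In a fit of the 4 libraries alone it was 5. Col1a1 had 71.4 and 56.5 FPKM in GS cells, against 67.2 and 111 FPKM at week 3 (limma adjusted p = 0.142), and Vim had 166 and 176 FPKM in GS cells, against 83.1 and 156 FPKM at week 3 (limma adjusted p = 0.11). Of 10 tested smooth muscle markers 2 were higher, 0 lower and 8 not called (median 0.624), beside 14.8% and 13.6% over all genes. Their median was 0.198 without week 3 replicate 1 and 1.07 without week 3 replicate 2. Smtn, a smooth muscle protein and 1 of those 2, was higher under every alternative. It had 30.2 and 28.6 FPKM in GS cells, against 4.42 and 4.9 FPKM at week 3 (2.42, limma adjusted p = 3.11e-05). Of 24 listed Sertoli markers, 14 lay below the filter. Of the 10 tested, 5 were higher and 0 lower (median 0.42), beside 14.8% and 13.6% over all genes. At an unadjusted p under 0.05, limma gave 1 lower in that list. The count of higher Sertoli markers was 3 without GS cells replicate 1 or week 3 replicate 1. With no filter on low values, 22 Sertoli markers were tested, 5 were higher and 1 lower, and their median was 0.03. Trf, transferrin, had 187 and 153 FPKM in GS cells, against 59.2 and 59.9 FPKM at week 3 (1.49, limma adjusted p = 0.000974).

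Adhesion genes were higher in GS cells for 58.3% of those tested, beside 14.8% over all genes. Of 24 tested, 14 were higher and 0 lower (median 0.45), and 10 to 12 were higher without any 1 library. At an unadjusted p under 0.05, limma gave 1 lower in that list. Integrin alpha 3 (Itga3), a laminin receptor subunit, had 44.4 and 46.7 FPKM in GS cells, against 9.77 and 13.5 FPKM at week 3 (1.90, SE 0.18, limma adjusted p = 0.000242). Itga5, a fibronectin receptor subunit, had 28.3 and 26.4 FPKM in GS cells, against 4.26 and 9.64 FPKM at week 3 (1.92, limma adjusted p = 0.00141). Cd9, the protein used to select the starting cells, had 157 and 156 FPKM in GS cells, against 118 and 106 FPKM at week 3 (0.48, limma adjusted p = 0.0035). Itga6 had 61.2 and 63.1 FPKM in GS cells, against 60.3 and 53.7 FPKM at week 3 (limma adjusted p = 0.349).

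Cell cycle inhibitors did not move together. Cdkn1b (p27) had 1.91 and 1.72 FPKM in GS cells, against 12 and 8.83 FPKM at week 3 (-2.01, SE 0.16, limma adjusted p = 0.000127), and its GS values were the lowest of the 10 libraries. Cdkn1a (p21) had 54.4 and 50.1 FPKM in GS cells, against 25.9 and 34.7 FPKM at week 3 (0.78, limma adjusted p = 0.00267). Cdkn2a, the locus of p16 and p19, had 59.3 and 52.7 FPKM in GS cells, against 67.3 and 65.2 FPKM at week 3 (limma adjusted p = 0.106). Trp53 had 70 and 68.4 FPKM in GS cells, against 57.9 and 63.2 FPKM at week 3 (limma adjusted p = 0.175). Tert, the telomerase catalytic subunit, had 9.03 and 6.74 FPKM in GS cells, against 12.6 and 13.8 FPKM at week 3 (-0.69, limma adjusted p = 0.0297), a call that was lost without GS cells replicate 2 (adjusted p = 0.162) and without either week 3 library. Of 30 mitosis genes 8 (26.7%) were lower and 0 higher by limma, beside 13.6% and 14.8% over all genes (median -0.21). At an unadjusted p under 0.05, limma gave 1 higher. The 8 were 1, 4, 5 and 2 without GS cells replicate 1, GS cells replicate 2, week 3 replicate 1 and week 3 replicate 2. In a fit of the 4 libraries alone 4 were lower. The count also turned on the scaling, with 10 lower and 1 higher with quantile normalization. It was 12 lower and 0 higher with libraries rescaled to the same FPKM sum. The mitotic kinesin Kif2c kept its call in all of them, with 35.3 and 37 FPKM in GS cells, against 48.8 and 49.5 FPKM at week 3.

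Chaperones of the endoplasmic reticulum and heat shock genes were higher for 11 of 20 tested (55.0%) and lower for 1 (median 0.29). Over all genes tested, for this list and the next ones, 14.8% were higher and 13.6% lower. The 11 were 7 without GS cells replicate 1 or in a fit of the 4 libraries alone. Hspa5 (BiP) had 399 and 368 FPKM in GS cells, against 228 and 234 FPKM at week 3 (0.73, SE 0.08, limma adjusted p = 0.00068). Herpud1, of the same organelle's protein degradation, had 20.7 and 20.2 FPKM in GS cells, against 38.2 and 42.8 FPKM at week 3 (-0.95, limma adjusted p = 0.00117). Of 24 tested genes of cholesterol synthesis and uptake 8 were lower and 1 higher, and the 8 were 4 without GS cells replicate 2. Of 31 respiratory chain genes 9 were higher and 0 lower (2 lower at an unadjusted p under 0.05), and the 9 were 3 without GS cells replicate 1 or week 3 replicate 1. They were 4 higher and 2 lower with quantile normalization, and 5 higher in a fit of the 4 libraries alone or without the intensity trend.

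Immune genes were higher in part. Over all genes tested 14.8% were higher and 13.6% lower. Of 24 tested MHC class I presentation genes 8 (33.3%) were higher and 0 lower (median 0.29). At an unadjusted p under 0.05, limma gave 0 lower in that list. The 8 were 4 without GS cells replicate 1 and 5 without week 3 replicate 1, and with quantile normalization 1 was lower. B2m, which encodes the light chain shared by class I molecules, had 103 and 91.7 FPKM in GS cells, against 49.3 and 62.2 FPKM at week 3 (0.80, limma adjusted p = 0.00148). Cd274 encodes PD-L1, which holds back T cells, and had 26.6 and 26.6 FPKM in GS cells, against 18 and 17.9 FPKM at week 3 (0.54, SE 0.10, limma adjusted p = 0.00554). It was 1 of 5 of 14 tested checkpoint ligands (35.7%) that were higher, with 0 lower, and its call held under every alternative. At an unadjusted p under 0.05, limma gave 1 lower in that list. The 5 were 3 without GS cells replicate 2 or week 3 replicate 1, and 1 ligand was called lower with either other scaling. The interferon response list split: 8 of 24 were higher and 6 lower. Zbp1, a sensor of nucleic acids, had 62.5 and 54.2 FPKM in GS cells, against 11.6 and 11.4 FPKM at week 3 (2.24, limma adjusted p = 0.000185), while Oasl2, an interferon target, had 10.5 and 8.19 FPKM in GS cells, against 42.5 and 34.2 FPKM at week 3 (-1.93, limma adjusted p = 0.000266). Both were at their highest of the series in those groups, Zbp1 in GS cells and Oasl2 at week 3. Without GS cells replicate 1, the interferon list had 4 higher and 2 lower, and without GS cells replicate 2 or week 3 replicate 1 it had 1 lower.

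Secreted factors and their antagonists moved both ways. Inhba, a subunit of activin, had 37.5 and 35.7 FPKM in GS cells, against 5.43 and 11.9 FPKM at week 3 (2.05, limma adjusted p = 0.00114). Sfrp2, an antagonist of WNT, had 7.53 and 5.69 FPKM in GS cells, against 27 and 21.4 FPKM at week 3 (-1.73, limma adjusted p = 0.000323). Of 25 tested TGF-beta and BMP genes 6 (24.0%) were higher and 5 lower, and of 20 WNT genes 6 (30.0%) were higher and 3 (15.0%) lower. Over all genes 14.8% were higher and 13.6% lower. The WNT count of higher genes was 2 without GS cells replicate 1 and 3 without GS cells replicate 2 or week 3 replicate 2. Among 27 tested imprinted genes 9 (33.3%) were higher and 6 (22.2%) lower. Rasgrf1, an exchange factor for RAS expressed from the paternal allele, had 12.3 and 12.5 FPKM in GS cells, against 2.72 and 3.43 FPKM at week 3 (1.72, SE 0.15, limma adjusted p = 0.000167), which was the top level of the 10 libraries. The higher imprinted genes numbered 3 without GS cells replicate 1 and 5 without GS cells replicate 2, and the lower ones 3 without GS cells replicate 2. Ribosomal protein genes were called in 3 of 35, 1 higher and 2 lower, but these counts turned on the scaling. They were 0 higher and 10 lower with quantile normalization, 1 and 7 with libraries rescaled to the same FPKM sum, 0 and 0 in a fit of the 4 libraries alone, and 2 and 0 without GS cells replicate 2.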

How the data were processed

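The authors deposited 1 matrix of normalized FPKM for 21969 genes in 10 libraries. RNA was extracted with TRIzol, cleaned on RNeasy columns and made into stranded poly(A) libraries, per the labels' protocols. The genome build mm10 and the tools HISAT2 2.1.0, Bowtie2 2.3.4.1, Cufflinks 2.2.1, Cuffdiff, cutadapt 1.16 and bcl2fastq 2.17.1.14 are listed, without roles, in the submitters' processing notes. Neither the normalization nor the annotation release is named in the sources used here. Near-identical gene copies, such as the H2 genes, are uncertain.

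Of the identifiers, 21951 were found in GENCODE M21 (GRCm38). Depth was estimated from low FPKM steps, whole within 0.15 of a read, in 2261 genes with a single transcript of at least 1500 nucleotides, assuming fragments of 200 nucleotides. No count model was run.

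log2(FPKM + 1) values of all 5 groups were fitted together in limma 3.58.1 (R 4.3.3, intensity trend, 5 residual degrees of freedom, two-sided). The contrast was GS cells minus week 3. The method was also run on simulated data with independent noise in each library. That run cannot show whether the 2 libraries of a group are independent. The members, the 40 lists and the naming rule were chosen with earlier results of these data known. The rule named the 12 highest and 12 lowest called genes whose groups did not overlap, up to 4 called members a list in each direction, and a fixed set of genes. For chromosome 16, the 8 highest and all lower called genes were named by a rule added after seeing the data, as were the windows. Of 952 list entries, 147 lay below the filter and 7 had no row. Genes printed for their promoter sequence (Slc7a11, Asns, Gars and Fgf21) were chosen after their values were seen.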

Additional observations from a re-analysis of the deposited data

How the results depend on the processing

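The count of genes higher in GS cells was 1889 and ran from 899 to 1364 when 1 of the 4 libraries was left out, and that of lower genes was 1730 and ran from 882 to 933. These fits have fewer samples. Under the other alternatives (pseudocount, filter, normalization, variance model, fit of 4 libraries, week 0 left out, chromosome 16 left out) both counts stayed within 1.5 times. Genes at least 2-fold lower numbered 291, but 467 with a pseudocount of 0.1 and 192 with FPKM 1 or more required in all 4 libraries. The median of chromosome 16 was 0.473, and became 0.505 with a pseudocount of 0.1, 0.333 with no filter, 0.431 with a filter on the mean of the 10 libraries and 0.433 with libraries rescaled to the same FPKM sum. These chromosome 16 alternatives were added after seeing the data. The cause was not tested.

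The replicate block was fitted although the labels do not pair the libraries. It gave 1801 higher and 1620 lower genes, and the replicate 1 deviations of the 2 groups correlated at 0.058 across genes. Of 213 named genes that were called, 119 were tested and called under each of the 16 alternatives that refit the genes. Another 19 kept their call wherever they were tested but fell below the filter in at least 1, and 40 lost it only without 1 library. None of these 213 changed direction under the alternatives that gave them a value. With 2 libraries a group, small changes are limited by the spread between libraries.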
